A study of Mus musculus with 4 samples.

Results

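The collagen genes were the 44 genes, of 19938 on the array, whose symbol has the form of a collagen chain name and which had a probe set annotated to that gene alone. The probe set with the highest mean over the 4 arrays stood for each gene, and only Col6a5 and Col6a6 had another. Terminal end buds, in which mammary ducts grow and branch during puberty, were isolated physically from glands of C57/BL6 females, and RNA of several littermates was pooled for each Affymetrix array. Knockout mice were Ovol2flox/-;K14-Cre (2 arrays, 3 mice per array), so that every cell carried a null allele and the floxed allele was open to Cre under the promoter of keratin 14, a keratin of basal epithelial cells and of the epidermis. Control mice were Ovol2flox/+ or Ovol2flox/+;K14-Cre by the protocol, and Ovol2flox/+ in the sample characteristics (2 arrays, 2 mice per array). All groups carried at least 1 floxed allele. The labels give an age of 4.5 weeks and the series text 24 to 25 days. The number of mice pooled and the genotype cannot be told apart.

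Collagens are secreted or membrane-bound proteins built from 3 chains wound into a triple helix. Fibrillar collagens form the cables of connective tissue, collagen IV forms the sheet of basement membranes, and collagen VI forms beaded filaments between them. FACIT collagens sit on the surface of fibrils, and transmembrane collagens anchor cells. In the mammary gland, fibroblasts of the stroma are known as the main source of the fibrillar chains, while epithelial and endothelial cells contribute to basement membranes. Ovol2 is a zinc finger repressor known to hold back the mesenchymal programme of epithelial cells.

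Values below are log2(signal + 16) after quantile normalization, and differences are knockout minus control on that scale, with the SE from limma after ±, n = 2 arrays per group, and p-values adjusted by Benjamini-Hochberg over the 11963 genes tested. Because probes differ in brightness, a level was set only against the same gene in other arrays. Sums over marker lists are of the deposited signals and were set only against the same sum in other arrays. The arrays had median signals of 252 to 272. Ovol2 itself read 8.05 and 8.31 in control and 7.85 and 7.73 in knockout arrays (difference -0.39 ± 0.16, adjusted p = 0.17), and the mesenchymal repressor gene Zeb1 rose by 2.01 ± 0.18 from a control mean of 7.62, under the filter on dim genes described next. Epithelial markers were bright in every array, with Epcam between 12.23 and 12.37.

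Of the 44 collagen genes, 35 passed the filter on dim genes, a mean log2 value of 7.97 over the 4 arrays. Of these 35, 9 rose in the knockout, 2 fell, and 24 did not pass the threshold of an adjusted p of 0.05. Among all tested genes, 6.29% rose and 4.45% fell, so 25.7% of tested collagen genes rose. The genes that rose were Col1a1, Col1a2, Col3a1, Col5a2, Col6a1, Col6a2, Col6a3, Col6a6 and Col15a1, and those that fell were Col17a1 and Col18a1. At least 2-fold increases were found for 7 of the 35 tested members, all among the 9 that rose. Such increases were found for 0.66% of all tested genes. The mean of the control arrays was above the filter level for all 9, so none passed the filter through its knockout signal alone. Both knockout arrays lay above both control arrays for 15 tested members (26.4% of all tested genes) and below them for 6 (29.9% of all tested genes). The median difference over the 35 was 0.024, beside -0.022 over all tested genes, and the 24 members that did not pass lay between -0.19 and 0.43.

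**Figure D1:**
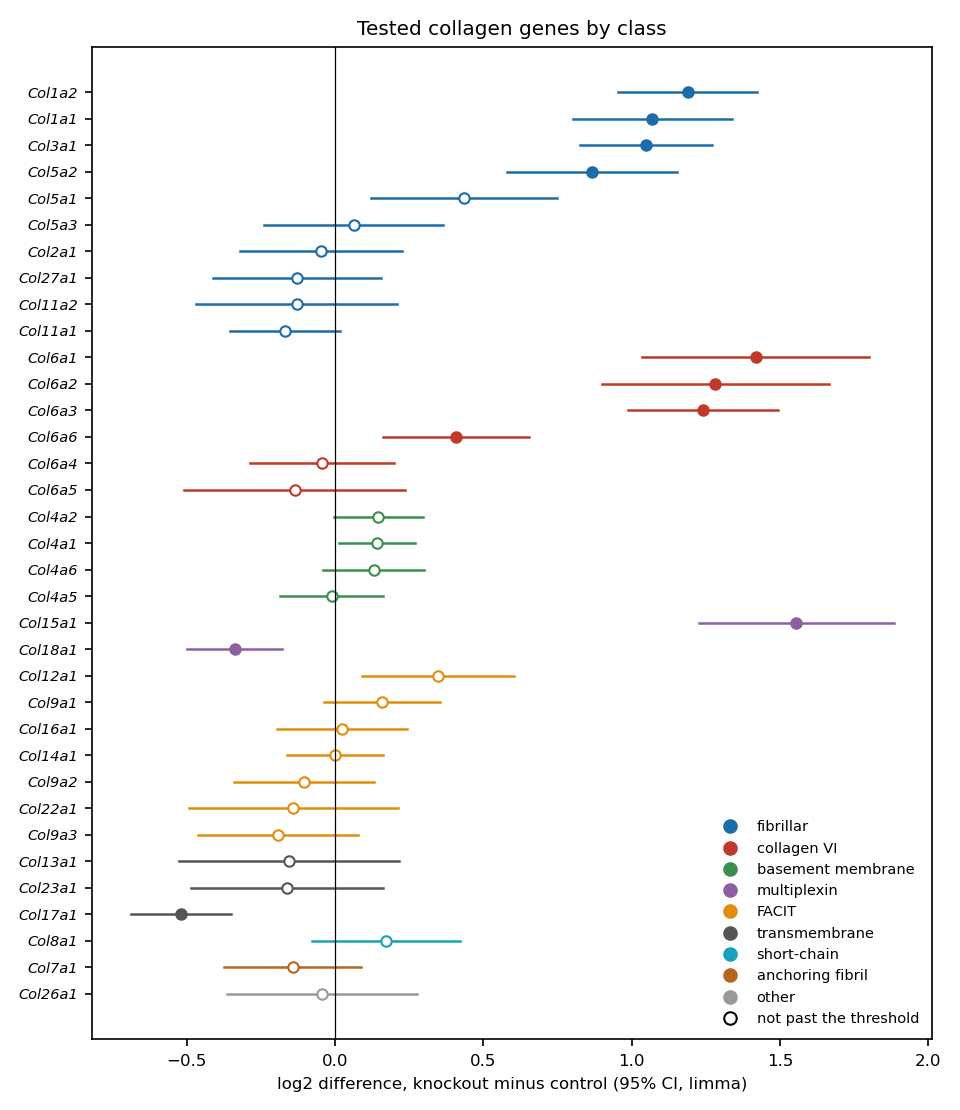
Log2 difference (knockout minus control, x axis) with its 95% confidence interval from limma for each of the 35 tested collagen genes, grouped by class. Filled points passed an adjusted p of 0.05. Col1a1, Col1a2, Col3a1, Col5a2, the 3 classical collagen VI chains and Col15a1 stand to the right, Col17a1 and Col18a1 to the left, and most others lie near 0.

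Fibrillar collagens rose as a subset. Among the 10 that were tested, 4 rose and none fell, and 6 missed the threshold (at an unadjusted p under 0.05, 5 were higher and 0 lower, beside 13.1% and 12.4% of all tested genes). Type I collagen, the main fibril of connective tissue, is a trimer of the Col1a1 and Col1a2 products. Col1a1 read 10.37 and 10.38 in control and 11.21 and 11.68 in knockout arrays, a 2.10-fold increase (1.07 ± 0.12, adjusted p = 0.00103). Col1a2 read 10.50 and 10.59 in control and 11.54 and 11.93 in knockout arrays, a 2.28-fold increase (1.19 ± 0.11, adjusted p = 0.000413). The groups did not overlap for either chain, and the 95% confidence intervals, 0.80 to 1.34 for Col1a1 and 0.95 to 1.42 for Col1a2, shared most of their length. The Col1a1 call was lost with a robust variance prior (adjusted p = 0.0716).

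Col3a1, the chain of type III collagen, which is laid into the same fibrils, went from 10.16 and 10.07 to 10.99 and 11.33, a 2.07-fold increase (1.05 ± 0.10, adjusted p = 0.000474). Its control arrays differed by less than 0.1 and the knockout arrays both lay above them. Type V collagen is known to start fibrils and to limit their width. Its chain gene Col5a2 went from 8.35 and 8.39 to 9.07 and 9.40, a 1.82-fold increase (0.87 ± 0.13, adjusted p = 0.00347). The partner chain Col5a1 was also higher in both knockout arrays, at 8.67 and 9.05 against 8.41 and 8.44, but did not pass (0.43 ± 0.14, adjusted p = 0.0815). Col5a1 did pass with the replicate number as a block (adjusted p = 0.041) and without normalization beyond that of the deposited table (adjusted p = 0.0102). Both fits took the variance as known from the mean-variance trend. The Col5a1 difference was 0.62 when knockout replicate 1 was left out. The third chain of type V, Col5a3, overlapped between groups, with 8.31 and 8.20 in control and 8.26 and 8.38 in knockout arrays (0.063 ± 0.13). The difference thus ran from 0.87 to 0.063 among the 3 chains of type V.

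The fibrillar genes best known from cartilage did not rise. Col2a1 had a difference of -0.047 ± 0.12 and Col11a2 of -0.13 ± 0.15, both with overlapping groups. Col11a1 read 9.53 and 9.55 in control and 9.43 and 9.32 in knockout arrays (-0.17 ± 0.083, adjusted p = 0.241), below both controls but not past the threshold. Col27a1 had -0.13 ± 0.13, and Col24a1, under the filter and not tested, had -0.11. The fibrillar median of 0.25 therefore lay in the gap between 4 members at 0.87 or more and 5 members at 0.063 or less, with Col5a1 between them. It was 0.12 without knockout replicate 2.

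The region before the transcription start is shown for the changed genes with a single start in the RefSeq promoter table (GRCm38.p6), to let the sequences of genes that moved together be set side by side. Of the 44 genes 35 had an entry, among them 9 of the 11 changed genes. Col1a1 and Col5a2 had none, and Col6a2 and Col18a1 had several starts. A set of 5 short motifs were searched on both strands in the 250 bases before the start: TATAAA (the TATA box), CCAAT (the CCAAT box), GGGCGG (the GC box of Sp1 factors), GGGAGG, and CACCTG (an E-box that Zeb and Snail repressors are known to bind). Matches of the same or of different motifs may overlap. The last 120 bases before the start are printed 5′ to 3′ on the gene's own strand, with matches on either strand in capitals. For the fibrillar genes these are Col1a2, chr6:4505498-4505617 (plus strand), with CCAAT 109 bases before the start and 4 GGGAGG matches in the printed stretch, and Col3a1, chr1:45311418-45311537 (plus strand), with TATAAA 117 bases before it.
Col1a2: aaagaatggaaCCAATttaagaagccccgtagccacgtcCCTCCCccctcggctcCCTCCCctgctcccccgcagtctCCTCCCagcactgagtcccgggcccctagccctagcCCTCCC
Col3a1: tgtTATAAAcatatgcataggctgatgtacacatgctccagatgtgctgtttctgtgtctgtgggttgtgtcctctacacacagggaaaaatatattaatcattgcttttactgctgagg

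Collagen VI forms microfilaments from 3 different chains, the products of Col6a1, Col6a2 and Col6a3. All 3 of these rose by similar amounts. Col6a1 read 9.06 and 9.32 in control and 10.29 and 10.92 in knockout arrays (1.42 ± 0.17, 2.67-fold, adjusted p = 0.00141). Col6a2 read 8.67 and 8.92 against 9.77 and 10.38 (1.28 ± 0.17, 2.43-fold, adjusted p = 0.00213). Col6a3 read 8.74 and 8.89 against 9.90 and 10.22 (1.24 ± 0.11, 2.36-fold, adjusted p = 0.000439). For each chain the lower knockout array was above the higher control array, and knockout replicate 2 was above knockout replicate 1. The calls of Col6a1 and Col6a2 were lost without the mean-variance trend (adjusted p = 0.0518 and adjusted p = 0.0585) and with a robust prior (adjusted p = 0.14 and adjusted p = 0.098), whereas Col6a3 passed under each of its 15 alternatives.

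The other collagen VI genes, Col6a4, Col6a5 and Col6a6, encode chains related to that of Col6a3. Col6a6 read 9.30 and 9.20 in control and 9.50 and 9.82 in knockout arrays, a 1.33-fold increase (0.41 ± 0.11, adjusted p = 0.0432). That call was lost under 6 alternatives, among them without knockout replicate 2, where the difference was 0.25 (adjusted p = 0.161). A second, dimmer probe set of Col6a6 read 7.43 and 7.82 in control and 8.41 and 8.44 in knockout arrays, a difference of 0.80, so the probe sets of this gene had the same sign and unequal sizes. Col6a4 (-0.044 ± 0.11) and Col6a5 (-0.14 ± 0.17) overlapped between groups and did not pass. The class as a whole had 4 of 6 members higher, 0 lower (0 also at an unadjusted p under 0.05), and a median difference of 0.82.

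Promoter stretches are printed for the 3 collagen VI genes that rose and had a single start, which leaves out Col6a2. Col6a1 (chr10:76726045-76726164 (minus strand)) and Col6a3 (chr1:90843972-90844091 (minus strand)) held GGGAGG matches, 6 in Col6a1 and 1 in the printed part of Col6a3, and Col6a6 (chr9:105828086-105828205 (minus strand)) held a GGGCGG match 91 bases before the start.
Col6a1: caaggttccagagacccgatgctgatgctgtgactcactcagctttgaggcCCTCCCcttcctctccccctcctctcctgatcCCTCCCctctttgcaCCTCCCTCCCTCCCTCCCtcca
Col6a3: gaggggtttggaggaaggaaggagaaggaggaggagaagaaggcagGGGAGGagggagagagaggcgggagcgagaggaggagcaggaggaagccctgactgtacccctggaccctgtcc
Col6a6: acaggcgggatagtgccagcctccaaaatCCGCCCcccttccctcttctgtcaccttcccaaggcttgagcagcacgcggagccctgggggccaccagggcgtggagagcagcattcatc

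The multiplexins, collagens of basement membrane zones whose ends can be released as inhibitors of vessel growth, moved in opposite directions. Col15a1, known from the margins of capillaries, muscle and fat cells, read 8.25 and 8.61 in control and 9.79 and 10.17 in knockout arrays. This 2.94-fold increase (1.56 ± 0.15, adjusted p = 0.000474) was the largest among the collagen genes and ranked 15 among the 11963 tested genes, and it passed under each of its 15 alternatives. Col18a1, the source of endostatin, read 9.99 and 10.04 in control and 9.69 and 9.66 in knockout arrays, and was 1.26-fold lower (-0.34 ± 0.071, adjusted p = 0.0168). Both groups were tight and did not overlap, but the Col18a1 call was lost with median centring of the arrays, without the trend, and without either control array (adjusted p from 0.0684 to 0.161). The intervals of the differences, 1.23 to 1.88 for Col15a1 and -0.50 to -0.18 for Col18a1, lay on opposite sides of 0. The printed stretch of Col15a1 (chr4:47207892-47208011 (plus strand)) held none of the 5 motifs.
Col15a1: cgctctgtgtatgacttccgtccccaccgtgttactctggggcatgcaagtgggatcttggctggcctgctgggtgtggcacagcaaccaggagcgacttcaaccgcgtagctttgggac

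Basement membrane collagen IV changed little. Of 4 tested members 0 rose and 0 fell (at an unadjusted p under 0.05, 1 was higher and 0 lower). Col4a1 and Col4a2, the chains of the common collagen IV network, read 10.78 and 10.84 against 10.94 and 10.96, and 10.47 and 10.61 against 10.66 and 10.71. Their differences were 0.14 ± 0.057 (adjusted p = 0.15) and 0.15 ± 0.066 (adjusted p = 0.205), with upper 95% limits of 0.27 and 0.30. The knockout arrays lay above the control arrays for both, with differences below those of the fibrillar and collagen VI chains that rose. Col4a6 had 0.13 ± 0.076 and Col4a5 -0.012 ± 0.077. Col4a3 and Col4a4, chains best known from the kidney filter, lay under the filter with differences of -0.012 and 0.018.

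The transmembrane class held the largest decrease. Col17a1 encodes an anchor of hemidesmosomes, the junctions that fix basal epithelial cells to the basement membrane. It read 10.90 and 10.94 in control and 10.29 and 10.50 in knockout arrays, and was 1.43-fold lower (-0.52 ± 0.075, adjusted p = 0.00308). The control arrays differed by 0.044 and both knockout arrays lay below them. The call was lost without the trend (adjusted p = 0.0633). In the same arrays Trp63, a transcription factor gene of basal epithelial cells, fell from 10.54 and 10.46 to 10.13 and 10.15, while the basal keratin genes Krt5 (-0.021 ± 0.11) and Krt14 (0.43 ± 0.15, adjusted p = 0.0993) did not pass. Krt14 passed with the replicate number as a block, with median centring and on the deposited scale. These fits took the variance as known from the mean-variance trend. The Krt14 difference was 0.72 without knockout replicate 1. The Trp63 call was lost with median centring, without the trend and without control replicate 1 (adjusted p from 0.0679 to 0.0742). Col13a1 (-0.16 ± 0.17) and Col23a1 (-0.16 ± 0.14) overlapped between groups, and Col25a1 lay under the filter at -0.14. The promoter stretch of Col17a1, chr19:47692043-47692162 (minus strand), held TATAAA 91 bases and the reverse complement of CCAAT 31 bases before the start.
Col17a1: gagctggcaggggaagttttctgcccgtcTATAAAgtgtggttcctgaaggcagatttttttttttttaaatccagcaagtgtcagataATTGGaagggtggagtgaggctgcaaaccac

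No FACIT collagen passed the threshold. Of 7 tested members 0 rose and 0 fell (at an unadjusted p under 0.05, 1 was higher and 0 lower). Col14a1, a fibril-surface collagen of dense connective tissue, was among the brighter probe sets, at 11.37 and 11.33 in control and 11.24 and 11.46 in knockout arrays. Its difference was -0.00011 ± 0.072, with a 95% confidence interval from -0.16 to 0.16 that lay wholly below those of Col1a1, Col1a2 and Col3a1. Col12a1, which also coats type I fibrils, read 8.98 and 9.25 in control and 9.36 and 9.56 in knockout arrays (0.35 ± 0.11, adjusted p = 0.0855), above both controls but not past the threshold. Col12a1 passed with the replicate number as a block (adjusted p = 0.00942), in the values as deposited, without control replicate 2 and without knockout replicate 1. Col16a1 had 0.024 ± 0.097, Col22a1 -0.14 ± 0.16, and the cartilage chains Col9a1, Col9a2 and Col9a3 lay between -0.19 and 0.16. Col19a1 and Col20a1 lay just under the filter, with means of 7.84 and 7.88 and differences of -0.16 and -0.038, while Col6a5 and Col22a1 lay just above it, with means of 8.01 and 8.08.

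Among the remaining members, the anchoring fibril gene Col7a1 read 9.13 in both controls and 8.88 and 9.08 in the knockouts (-0.14 ± 0.10, adjusted p = 0.431). Col8a1, a short-chain collagen of vessel walls, read 11.38 and 11.52 in control and 11.41 and 11.83 in knockout arrays (0.17 ± 0.11, adjusted p = 0.383). Its height rested on knockout replicate 2: without knockout replicate 1 it passed at 0.38, without knockout replicate 2 it was -0.037, and with the replicate number as a block it passed at adjusted p = 0.0108. Col26a1 had -0.044 ± 0.14. Col8a2, Col10a1 and Col28a1 lay under the filter, with differences of 0.18, -0.078 and 0.015. The groups overlapped for all 9 genes under the filter, whose differences ran from -0.16 to 0.18.

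**Figure D2:**
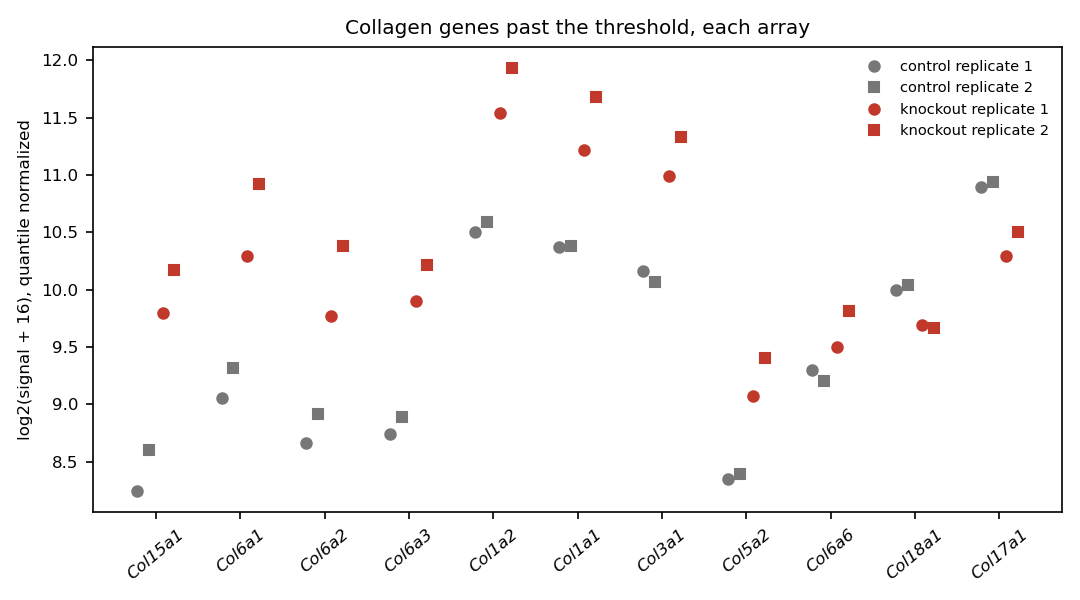
Level of the 11 changed collagen genes in each array, as log2(signal + 16) after quantile normalization, with grey points for control and red points for knockout arrays. The knockout arrays lie above the control arrays for the 9 genes on the left and below them for Col18a1 and Col17a1, and knockout replicate 2 is above knockout replicate 1 for all 9 that rose.

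The knockout arrays were not equal. All 9 genes that rose were higher in knockout replicate 2 than in replicate 1, by 0.31 to 0.63 on the log2 scale, while their control arrays differed by -0.097 to 0.36 (replicate 2 minus replicate 1). Over all 35 tested members knockout replicate 2 was the higher for 33, against 44.0% of all tested genes. This was not particular to collagen genes. Of the tested cell markers listed below, it was the higher for 11 of 11 of fibroblasts and 7 of 7 of endothelium. The same held for 5 of 5 of adipocytes, 4 of 4 of pericytes and smooth muscle, 6 of 9 of epithelium and 0 of 5 of macrophages. The size of each collagen increase depended on the array, for Col6a2 from 0.98 with knockout replicate 1 alone to 1.59 with knockout replicate 2 alone, and for Col1a1 from 0.84 to 1.30. Each of the 8 genes Col1a1, Col1a2, Col3a1, Col5a2, Col6a1, Col6a2, Col6a3 and Col15a1 stayed past the threshold with either knockout array alone, where the lone array was taken to vary like the others.

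**Figure D3:**
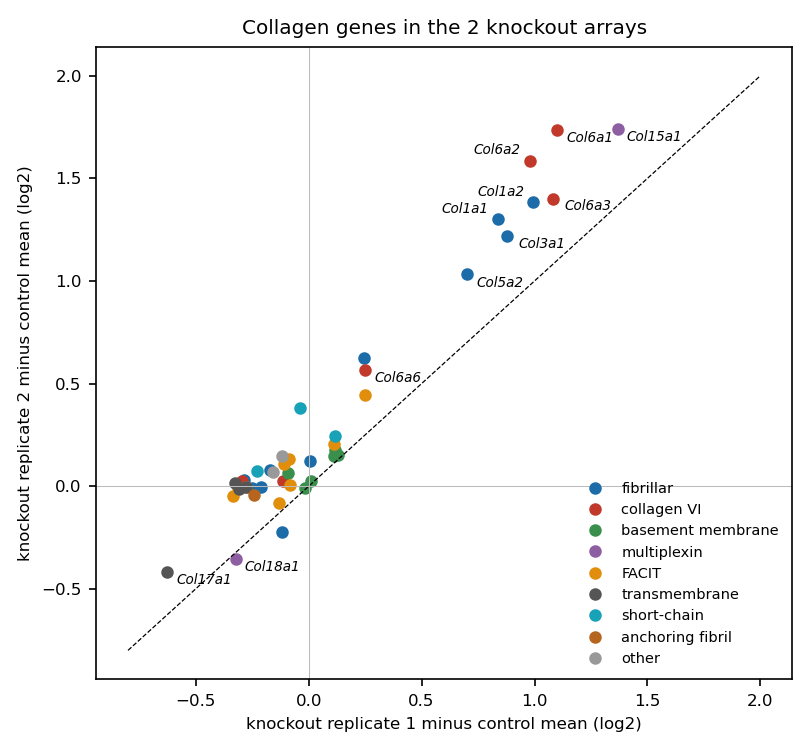
Difference of each of the 44 collagen genes from the mean of the control arrays, in knockout replicate 1 (x axis) and knockout replicate 2 (y axis), both on the log2 scale, coloured by class. The dashed line marks equal values, and all 9 genes that rose lie above it.

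Neighbouring genes did not always move alike. By their order in the RefSeq gene table, Col3a1 and Col5a2 (chromosome 1) and Col6a1 and Col6a2 (chromosome 10) are pairs with no protein-coding gene between them, and each pair rose together. Col18a1, which fell, is separated from Col6a1, which rose, by 2 protein-coding genes, Pcbp3 and Slc19a1. Col4a1 and Col4a2 (chromosome 8) are likewise adjacent, at 0.14 and 0.15. Of the adjacent Col6a6, Col6a5 and Col6a4 (chromosome 9), Col6a6 rose and the others did not pass.

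The motifs were counted over whole 250-base windows, a gene counting where any of its windows held a match. CACCTG was present for 4 of 35 collagen genes (Col4a4, Col6a5, Col8a1 and Col16a1), for 0 of the 7 genes that rose and had an entry and 0 of the 2 that fell, and for 19.4% of the 27025 genes in the table. GGGAGG was present for 26 of the 35, 4 of the 7 that rose and 40.4% of all genes. GGGCGG was present for 21 of the 35, 3 of the 7 and 35.4% of all genes. CCAAT was present for 13 of the 35 and 37.5% of all genes, and TATAAA for 5 of the 35 and 14.3%. These are matches of letters in a short window and say nothing of binding.

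Genes that make, read or cut collagen were set beside the chains, from lists drawn from general knowledge. Of 26 tested collagen-making enzymes and chaperones, 5 rose, 1 fell and 20 did not pass (median 0.14). The cross-linking oxidase genes Loxl1 and Lox rose by 1.15 ± 0.12 and 1.12 ± 0.22, though Lox passed the filter only through its knockout arrays, with a control mean of 7.73. Sparc, a collagen-binding matrix protein gene, rose from 12.63 and 12.70 to 12.94 and 13.12 (0.36 ± 0.063, adjusted p = 0.00732). Fkbp14, a folding enzyme gene of the endoplasmic reticulum, rose by 0.46 ± 0.098 and the collagen galactosyltransferase gene Colgalt2 by 0.67 ± 0.16. The lysyl hydroxylase gene Plod2 fell by 0.46 (SE 0.11, adjusted p = 0.0316). Among the 20 that did not pass, with differences from -0.16 to 0.43, the highest was the prolyl hydroxylase gene P4ha2 at 0.43 ± 0.20. It was followed by Pcolce2 (0.38 ± 0.12), P3h3 (0.31 ± 0.10) and Pcolce (0.25 ± 0.075), with both knockout arrays above both controls for all 4. That held for 15 of the 26 tested members of this list, beside 26.4% of all tested genes. The difference was 0.052 ± 0.058 for the collagen chaperone gene Serpinh1, 0.010 ± 0.048 for P4hb and -0.0070 ± 0.079 for P4ha1, which encode subunits of prolyl hydroxylase, and 0.081 ± 0.072 for Crtap. The calls of Colgalt2 (0.47), Fkbp14 and Plod2 were lost without control replicate 1. The calls of these genes and of Lox were lost without the trend, and that of Fkbp14 also with median centring.

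Of 9 tested collagen receptors 2 rose and 1 fell (median -0.0035). The collagen-binding integrin gene Itga1 went from 8.72 and 9.10 to 9.81 and 10.19 (2.14-fold, SE 0.15 on the log2 scale, adjusted p = 0.00216), and the receptor kinase gene Ddr2, known from mesenchymal cells, from 7.69 and 7.92 to 8.29 and 8.52 (0.60 ± 0.16, adjusted p = 0.0412, and adjusted p = 0.0638 with the replicate number as a block). The control mean of Ddr2, 7.80, was under the filter, which it passed only through its knockout arrays. Their epithelial counterparts did not pass, with -0.13 ± 0.056 for Itga2 and -0.041 ± 0.069 for Ddr1. The receptor gene Cd44 fell by 0.24 (SE 0.051). The calls of Itga1, Cd44 and Ddr2 were all lost without the trend. The Cd44 call was also lost with median centring and without control replicate 1, and the Ddr2 call without control replicate 1 and without knockout replicate 2. Of 10 collagen-degrading proteases 3 could be tested: Mmp2 rose by 1.61 ± 0.098 and Mmp16 by 0.84 ± 0.12, while Mmp14 had 0.00087 ± 0.061. The other 7 were too dim for the filter. Ctsk, Fap, Mmp13 and Mmp1a had differences of 1.36, 1.05, 0.98 and 0.097, each with both knockout arrays above both controls (26.4% of all tested genes). Mmp1b had -0.0060 and Mmp8 -0.013, with overlapping groups. Mmp9 had -0.12, with both knockout arrays below both controls (29.9% of all tested genes).

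Most tested markers of fibroblasts, endothelium, and pericytes and smooth muscle rose, while no tested macrophage marker did. The adipocyte list was split. Of its 9 members 4 rose, 1 did not pass and 4 lay under the filter with differences between -0.055 and 0.11. Of 11 tested fibroblast markers without collagens 10 rose and 0 fell (median 1.03; 0 lower also at an unadjusted p under 0.05). Lum rose by 1.94 ± 0.092, Pdgfra by 1.62 ± 0.11, Postn by 1.48 ± 0.056, Pdgfrb by 1.25 ± 0.15 and Thy1 by 1.06 ± 0.14, whereas Fbln1, named after its value was seen, had -0.18 ± 0.081. The summed signal of the 12 fibroblast markers was 14422 and 15368 in control and 27106 and 31321 in knockout arrays. Summed epithelial markers (9 genes, of which Trp63 alone changed, falling by 0.36) ran from 52435 to 53784 over all 4 arrays. These sums are of deposited signals and follow the brightest probe sets, here Krt8, Krt18 and Krt19. They do not measure the share of a cell type. The part of stromal cells in the collagen increases was not tested, and in bulk RNA more cells of a type and more RNA per cell cannot be told apart.

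Of 7 endothelial markers 5 rose and 0 fell (median 0.63; 0 lower also at an unadjusted p under 0.05), with Emcn at 1.02 ± 0.14, Kdr at 0.88 ± 0.17 and Cdh5 at 0.72 ± 0.13. Kdr, with a control mean of 7.69, passed the filter only through its knockout arrays. The summed signal of the 7 was 2758 and 3493 in control and 4786 and 5979 in knockout arrays. Of 4 tested pericyte and smooth muscle markers 3 rose, with Rgs5 at 0.87 ± 0.14, Myh11 at 0.74 ± 0.12 and Acta2 at 0.21 ± 0.053. Notch3 (0.10 ± 0.073) did not pass, and Cspg4 and Des lay under the filter with differences of 0.11 and 0.21. The summed signal of the 6 was 12893 and 13769 against 15805 and 17556. Acta2 alone gave 8984 and 9143 against 10037 and 10724 of it. Acta2 and Myh11 are also genes of myoepithelial cells, so the list does not mark vessel walls alone. Of 5 tested adipocyte markers 4 rose, with Lpl at 0.98 ± 0.13, Cd36 at 0.64 ± 0.095, Fabp4 at 0.58 ± 0.091 and Pparg at 0.43 ± 0.11, while Plin1 had -0.084 ± 0.15. Of these calls, Cd36, Fabp4 and Pparg were lost without the trend, and Pparg also with median centring, without control replicate 1 (0.32) and without knockout replicate 2. The sum was 3774 and 4006 against 5320 and 6075, but Adipoq, Lep, Cidec and Plin4 lay under the filter with differences between -0.055 and 0.11. Of 5 tested macrophage markers 0 rose and 1, Lyz2, fell (at an unadjusted p under 0.05, 0 were higher and 1 lower), and the sum was 3452 and 3981 against 3973 and 2676. No marker was at 0 in any array, but without detection calls this does not show that a marker was expressed. The part of these cells in the collagen changes was not tested. With the trend left out, the endothelial, pericyte and macrophage calls named here were lost, and so were those of Myh11, Cdh5 and Lyz2 with a robust prior, Acta2 with median centring, without control replicate 1 or without knockout replicate 2, Kdr without control replicate 1, and Lyz2 without control replicate 2 or under the stricter filter (60th percentile).

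**Figure D4:**
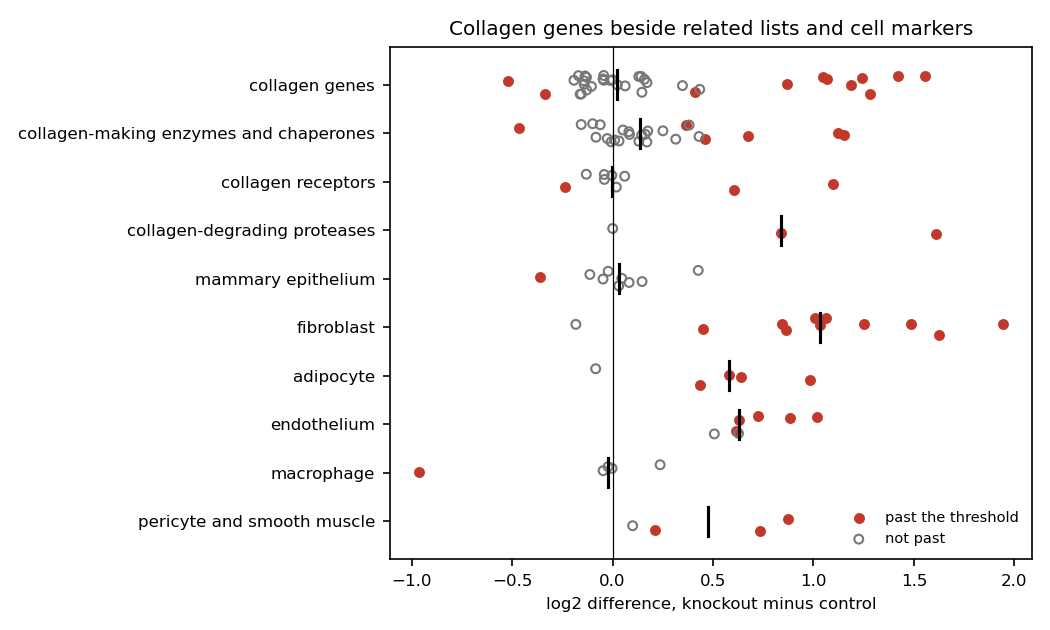
Log2 difference (knockout minus control, x axis) of each tested gene of the collagen family, of the related lists and of the cell marker lists. Red points passed an adjusted p of 0.05, open points did not, and black bars are list medians. The fibroblast list has the highest median, 1.03, and the collagen genes run from -0.52 to 1.56, with most open points near 0.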

How the data were processed

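RNA of isolated terminal end buds was measured on 4 single-colour arrays, 2 control and 2 Ovol2 knockout pools. The deposited table held 1 linear signal intensity per probe set and array for 35556 probe sets. Expression Console (1.1.1) and PLIER (2.0) made these values, per the submitters' processing notes. Their background correction and normalization, and the build, are not stated in what was read here. Of the probe sets, 21789 carried 1 gene symbol in the platform annotation, 1621 several and 12146 none, and all 44 collagen symbols matched a RefSeq table of GRCm38.p6. With no detection calls, a dim signal could not be told from background, and the number of arrays limits the precision.

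Signals were taken as log2(signal + 16), quantile normalized over all probe sets, and reduced to 19938 genes by the probe set with the highest mean. Genes under the 40th percentile of the mean over the 4 arrays were left out. Knockout was set against control in limma (3.58.1, under R 4.3.3; lmFit, eBayes with trend, two-sided), with 2 residual and 7.58 prior degrees of freedom, and the script was tested on simulated data. Collagen classes and lists were compiled from general knowledge. The members, the lists and the processing were chosen with earlier results of these data known. The text names every collagen gene, and in each other list up to 5 changed members with the largest differences and further members, Sparc among them, chosen after their values were seen, with Ovol2, Zeb1 and Krt14 as checks. The 14 alternatives cover normalization, offset, filter, variance prior, probe set, replicate block and each array left out, and 1 more, a crossed block, was chosen after seeing the data. Nothing in the labels says that a replicate number is shared between the groups. The labels call the pools biological replicates.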

Additional observations from a re-analysis of the deposited data

How the results depend on the processing

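The sign held for all 11 changed collagen genes under each of their alternatives, 164 values in all, of which 16 no longer passed the threshold. Col1a2, Col3a1, Col5a2, Col6a3 and Col15a1 passed under every alternative in which they were tested. The count that rose, 9, ran from 6 (no trend, robust prior) to 12 (replicate block), and from 8 to 12 with single arrays left out. The count that fell, 2, was 1 with median centring, 0 without the trend (limma, 2 at an unadjusted p under 0.05) and between 1 and 2 with single arrays left out. Fits in the values as deposited, with median centring, with the replicate block or without 1 knockout array took the variance as known from the trend. For all 11 genes the groups did not overlap, so leaving out a single array could not turn a sign. The filter, trend, prior and block settings left each difference unchanged. The sign was thus largely fixed in advance and does not measure how firm these results are.

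Medians depended on which dim members entered, since fewer genes were tested. With the filter at the 60th percentile they were 0.17 over all tested members, 1.06 for fibrillar, 1.26 for collagen VI and -0.52 for transmembrane genes, the last being Col17a1 alone. With no filter they were 0.063 for fibrillar and 0.074 for basement membrane genes. The collagen VI median was 1.24 with all probe sets of a gene averaged. With single arrays left out the medians ran from -0.037 to 0.12 over all tested members, from 0.12 (without knockout replicate 2) to 0.37 for fibrillar genes, from 0.61 to 0.98 for collagen VI and from -0.33 to -0.013 for transmembrane genes.

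The sign turned for 10 genes that did not pass. With the deposited values not normalized further these were Col14a1 (0.0018), Col2a1 (0.0030), Col4a5 (0.029), Col6a4 (0.0094). With single arrays left out, the differences ran from -0.33 to 0.016 for Col13a1, from -0.11 to 0.11 for Col14a1, from -0.087 to 0.13 for Col16a1, from -0.16 to 0.071 for Col26a1, from -0.29 to 0.030 for Col27a1, from -0.17 to 0.078 for Col2a1, from -0.028 to 0.0047 for Col4a5, from -0.12 to 0.027 for Col6a4, from -0.30 to 0.024 for Col6a5, from -0.037 to 0.38 for Col8a1. The sign turned without knockout replicate 1 for Col13a1 (0.016), Col14a1 (0.11), Col26a1 (0.071), Col27a1 (0.030), Col2a1 (0.078), Col6a4 (0.027), Col6a5 (0.024). The sign turned without control replicate 1 for Col14a1 (0.016), Col16a1 (-0.0074), Col2a1 (0.029), Col6a4 (0.0061). The sign turned without knockout replicate 2 for Col16a1 (-0.087), Col8a1 (-0.037). The sign turned without control replicate 2 for Col4a5 (0.0047). The cause was not tested.

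Deviations of same-numbered arrays from their group means correlated with r = -0.196 across 11963 genes. With 2 arrays per group, numbering either group the other way would only turn the sign of r. It therefore cannot tell whether the arrays are paired. The replicate block, which raised the calls over all genes from 1285 to 2246, moved the collagen counts from 9 and 2 to 12 and 2, and the crossed block gave 9 and 2. In the crossed block Ovol2 passed, at adjusted p = 0.0497.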

Other observations

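Knockout replicate 2 lay above knockout replicate 1 for 33 of the 35 tested collagen genes, dim and bright, as it did for every tested fibroblast and endothelial marker. By quartile of the mean over the 4 arrays, from dim to bright, it was the higher for 10 of 10, 14 of 15, 1 of 2 and 8 of 8 tested collagen genes, against 49.1%, 40.6%, 42.5% and 43.8% of all tested genes. Of the 24 collagen genes that did not pass the threshold, 14 had their lowest value in knockout replicate 1, which was the lowest array for 18.3% of all tested genes. Among the 9 genes under the filter, 6 had their lowest value in that array.

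The second probe set of Col6a5 read 6.80 and 6.86 in control and 6.81 and 6.59 in knockout arrays, a difference of -0.13 beside -0.14 for the brighter probe set.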
